A study of Rattus norvegicus with 180 samples.

Results

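Bone marrow was compared with spleen over all miRNAs of a 1-color array, within each of the 3 rats whose vessels had been washed out with saline before the organs were taken. The comparison used 6 of the 180 arrays of an atlas of normal rat organs, 3 of bone marrow and 3 of spleen, chosen by the organ and the animal number in their titles (animals 4, 5 and 6). All 3 animals were untreated male Sprague-Dawley rats of 10 weeks of age, and both groups share the saline perfusion. The organ list of the study gives the femur as the source of the bone marrow. No sorting of cells is described for either organ, so each value is taken as an average over the cell types in the sample. The array held 717 miRNAs, of which 201 were detected on one or more of the 6 arrays. A test was made of the 148 that all 3 arrays of bone marrow, or all 3 of spleen, detected.

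A miRNA is a short RNA that guides a silencing complex to messenger RNAs, mostly through its seed, which is the stretch of bases next to its 5′ end, and miRNAs that share a seed can bind many of the same targets. Bone marrow is where red cells, platelets, granulocytes and B lymphocytes are formed, so that it is rich in dividing precursors. The spleen filters blood and holds mature B and T lymphocytes together with macrophages, a muscular and fibrous framework and, in rodents, some formation of red cells. miR-451 and miR-144 are known for red cell precursors, miR-223 for granulocytes and monocytes, and miR-142 for blood cells of all kinds. The miR-17 clusters are known for dividing precursors, miR-181 for lymphocyte precursors and miR-150 for mature lymphocytes.

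The sequences shown are those of the miRNAs on which the comparison turns. They are the mature forms in RefSeq for the rat assembly GRCr8, written 5′ to 3′, with the seed (bases 2 to 8) in capitals, and all coordinates given are those of the mature forms in that assembly. Array names were matched by name, with the usual arm of the hairpin where the array name gives none, and 120 of the 148 tested miRNAs had such an entry. The first set shares one seed, that of miR-17, and all 5 members were called higher in bone marrow in the main scaling (beside 44.6% of all tested), 4 of them under each of 4 scalings.
miR-17-5p: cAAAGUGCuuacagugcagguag
miR-20a: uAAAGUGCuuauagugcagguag
miR-20b-5p: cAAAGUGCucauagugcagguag
miR-93: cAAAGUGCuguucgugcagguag
miR-106b: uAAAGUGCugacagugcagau
miR-18a belongs to the same gene cluster as miR-17 but has a seed of its own.
miR-18a: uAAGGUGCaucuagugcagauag
The 4 members of the miR-181 family share the next seed and were also called higher in bone marrow in the main scaling.
miR-181a: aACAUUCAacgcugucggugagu
miR-181b: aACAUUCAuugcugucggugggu
miR-181c: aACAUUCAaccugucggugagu
miR-181d: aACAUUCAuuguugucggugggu
The 5 members of the miR-15 and miR-16 family share one seed and did not move together in the main scaling. There 4 were called lower (beside 22.3% of all tested) and miR-16 was called higher, a difference that turned to -0.36 under another scaling.
miR-15b: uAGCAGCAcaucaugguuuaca
miR-16: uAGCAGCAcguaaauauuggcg
miR-195: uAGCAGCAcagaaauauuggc
miR-497: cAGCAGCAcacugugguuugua
miR-322: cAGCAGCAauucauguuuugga
The 3 members of the miR-29 family share a seed and were all called lower in bone marrow (beside 22.3% of all tested).
miR-29a: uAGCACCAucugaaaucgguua
miR-29b: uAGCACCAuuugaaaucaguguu
miR-29c: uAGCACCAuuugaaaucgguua
miR-23a, miR-27a and miR-24 come from one short locus (miR-24 also from another), have different seeds and diverged between the organs.
miR-23a: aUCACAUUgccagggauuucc
miR-27a: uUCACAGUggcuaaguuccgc
miR-24: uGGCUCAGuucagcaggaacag
The last set are single miRNAs with the widest differences or with a marker role.
miR-494: uGAAACAUacacgggaaaccucu
miR-196b: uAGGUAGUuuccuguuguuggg
miR-204: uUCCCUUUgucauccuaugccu
miR-26b: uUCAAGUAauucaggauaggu
miR-342-3p: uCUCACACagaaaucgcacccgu
miR-451: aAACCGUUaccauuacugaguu
miR-144: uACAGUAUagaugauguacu
miR-223: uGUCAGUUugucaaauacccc
miR-142-3p: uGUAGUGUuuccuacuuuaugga

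Signals are given as scaled signal, which is the background-corrected intensity in arbitrary units after all values of an array were multiplied by one factor. For log2 values, signals below a floor of 10.8 were set to it. Since probes of different miRNAs differ in brightness, a level is compared only between organs and never between miRNAs. The marrow arrays were dimmer, with factors of 2.29, 3.46 and 4.20 in animals 4, 5 and 6 against 0.663, 0.813 and 0.877 for spleen, and the middle array of 3 detected 136 miRNAs in marrow and 173 in spleen. The log2 signals of the 148 tested miRNAs correlated between arrays of one organ at 0.988 to 0.994 in spleen and 0.967 to 0.986 in marrow, and at 0.780 to 0.847 between the organs. Each of the 6 arrays lay on a slide of its own. The spleens of animals 4, 5 and 6 were scanned on days 1, 2 and 3 and the marrows on days 2, 3 and 3. With scan day as a block in place of the animal 84 miRNAs were called, against 99 with the animal as the block. Day 3 alone held 2 marrow arrays and 1 spleen array, between which all of these 99 differences kept their direction. Day 2 held 1 array of each organ, between which 98 did. The 99 were called on these same arrays, so this agreement is no separate test of scan day.

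Of the 148 tested miRNAs, 99 (66.9%) differed between the organs at an adjusted p under 0.05 in limma with the animal as a block. Bone marrow was higher for 66 (44.6%) and lower for 33 (22.3%). In samples of mixed cells, fewer cells of a type and less of a miRNA per cell cannot be told apart. This holds here and in all results that follow. The balance of the directions depended on how the arrays were scaled. When the percentile was taken over the miRNAs that all 6 arrays detected, it was 65 higher and 44 lower, with quantile normalization 50 and 56, with the percentile over all miRNAs 30 and 80, with the normalized table of the authors 42 and 60, and with no scaling 5 and 119. The median log2 difference of the tested miRNAs was 0.34 in the main scaling, and the other scalings moved it by -0.16, -0.50, -0.98 and -1.92 (six-array percentile, quantile, all miRNAs and none). A total of 30 miRNAs were called higher (20.3%) and 32 lower (21.6%) under each of the first 4 scalings, and these 62 are called stable to scaling here; this rule was added after the data were seen. The authors' table called all 62 in the same direction, but it rescales signals of the same arrays and is not independent of the 4 scalings. Without the arrays of animal 5 the count of calls fell from 99 to 61 (42 higher and 19 lower), which included all 30 of the stable higher miRNAs and 19 of the 32 stable lower ones. With background correction on the median spot signals, 30 of the 30 and 17 of the 32 were called in the same direction. With scan day as a block in place of the animal, this held for 30 of the 30 and 23 of the 32.

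**Figure D1:**
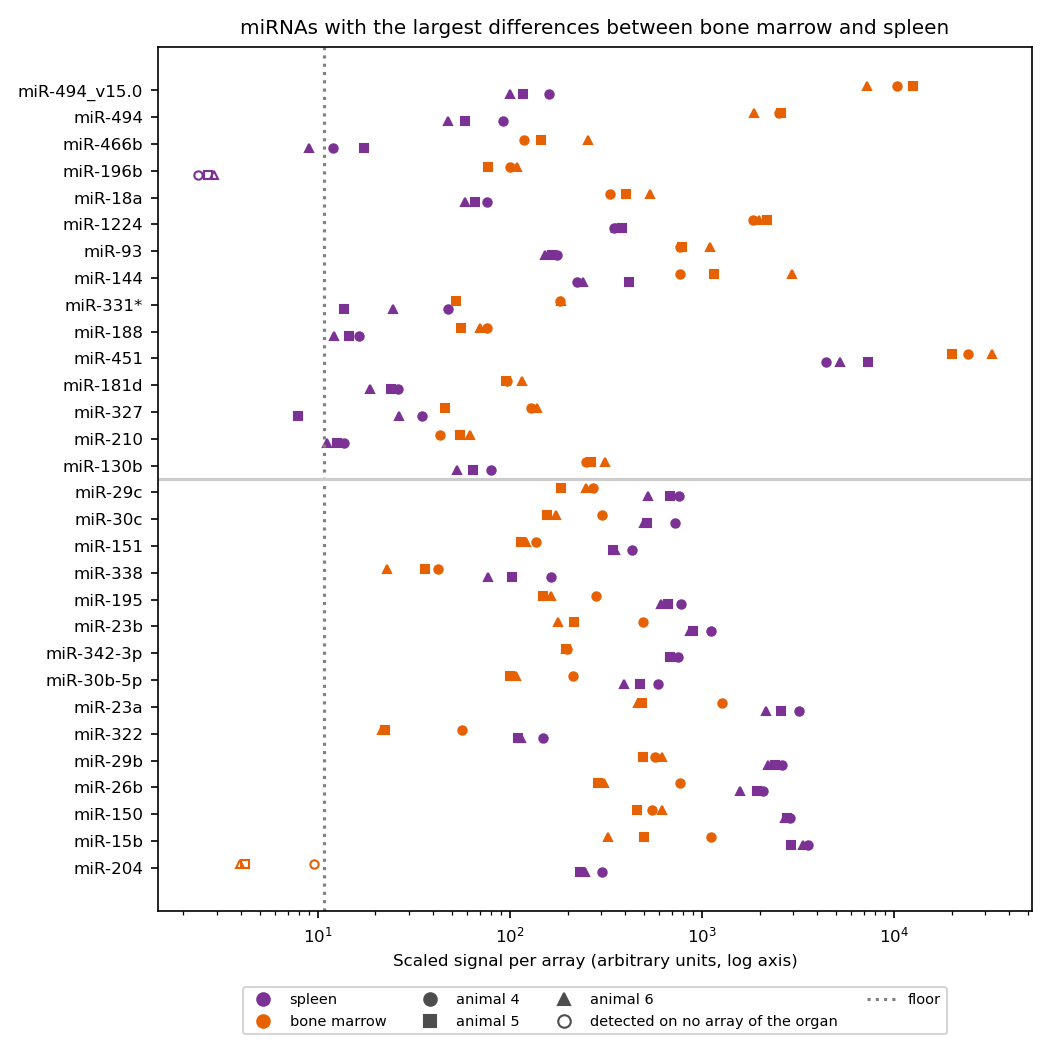
Scaled signal (arbitrary units, log axis) on each of the 6 arrays for the 15 miRNAs with the highest and the 15 with the lowest log2 difference. Color gives the organ, symbol the animal, open symbols an organ in which the miRNA was detected on no array, and the dotted line the floor of 10.8; the organs do not overlap in any row, which the choice of miRNAs required.

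The miRNAs named as the widest differences were the 15 highest and 15 lowest of the calls that went in 1 direction in all 3 animals without overlap of the organs (64 higher and 27 lower qualified). Marrow values lay above all spleen values for 68 of the 148 miRNAs (45.9%) and below all of them for 34 (23%). All 30 named were stable to scaling. Without scaling, marrow was called higher for 5 of them, namely both entries of miR-494, miR-466b, miR-196b and miR-18a, and lower for all 15 at the lower end. Beside the pair miR-451 and miR-144, the higher end held miR-494, miR-466b, miR-196b, miR-18a, miR-1224, miR-93, miR-331*, miR-188, miR-181d, miR-327, miR-210 and miR-130b. The lower end held miR-204, miR-15b, miR-150, miR-26b, miR-29b, miR-322, miR-23a, miR-30b-5p, miR-342-3p, miR-23b, miR-195, miR-338, miR-151, miR-30c and miR-29c.

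**Figure D2:**
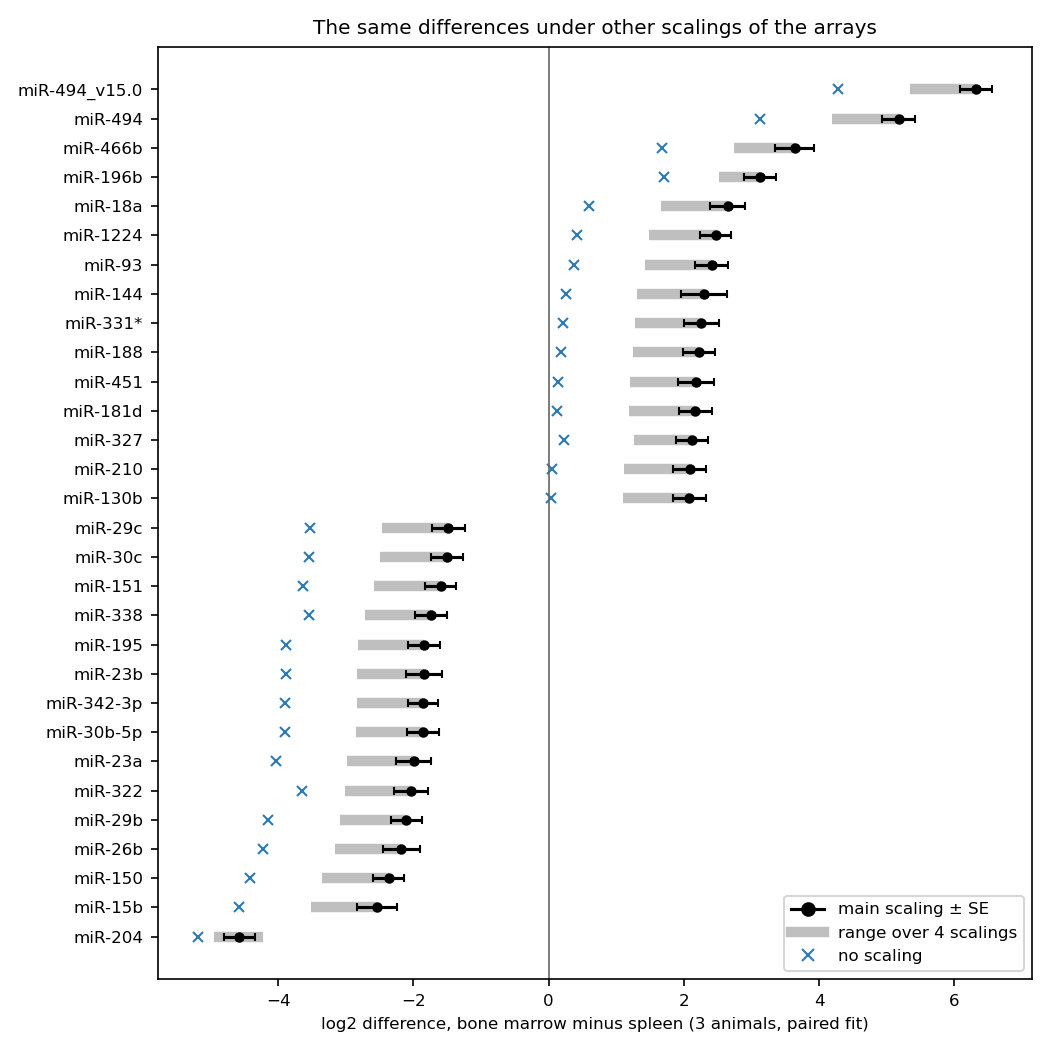
log2 difference, bone marrow minus spleen, of the same 30 miRNAs (points with SE, 3 animals, paired limma fit), with its range over the 4 scalings as a grey bar and the value without scaling as a cross. All grey bars lie on one side of 0. Without scaling the higher miRNAs from miR-18a downward lie between 0.04 and 0.60, and the lower miRNAs between -5.19 (miR-204) and -3.53. miR-196b and miR-204 were each detected in only 1 organ, so the sizes and SE drawn for them depend on the floor and are not exact.

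The markers of the 2 organs were checked first. miR-451, which is processed without Dicer and promotes red cell maturation, had scaled signals of 4413, 7351 and 5231 in the spleens of animals 4, 5 and 6 and of 24324, 20148 and 32589 in the marrows. Both organs stood first and second for miR-451 and for miR-144 among the 55 organs of the perfused animals, ahead of brown adipose tissue. miR-223 had 1094, 1139 and 832 in spleen and 3661, 2118 and 1642 in marrow, and bone marrow and spleen were again the first and second of 55 organs. miR-142-3p was high in both, at 16079, 14826 and 11169 in spleen and 13752, 14544 and 23544 in marrow, which placed marrow and then spleen just after thymus and both lymph nodes. Markers of tissues that could have been cut along were low. The summed signal of 9 skeletal and heart muscle entries was 57.3 to 124 in marrow and 23.8 to 33.9 in spleen, against 172480 on the highest array of femoris muscle, and no more than 2 of the 9 were detected on an array. The muscle sum read higher in marrow than in spleen, but most of its entries were undetected and the marrow arrays had the larger factors. Whether the sum reflects muscle RNA, and its part in the results, was not tested. The liver, pancreas and neural lists, with 2, 5 and 4 entries, were detected on none of the 6 arrays, and of 9 epithelial entries, with sums of 45.5 to 75.1, 1 was detected, on all 6 arrays; it was tested and not called.

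Of the markers, the red cell pair was higher in marrow under all 4 scalings. The red cell list had 3 tested entries, 2 of them higher and 1 lower, and the list of miR-142 and miR-223 had 3, of which 1 was higher and 2 were not called, beside 44.6% higher and 22.3% lower among all tested. miR-451 was 4.55-fold higher (log2 difference 2.19 ± 0.27, SE, n = 3 animals; limma adjusted p = 7.39e-06). miR-144, from the same short locus (chr10:63459585-63459606, plus strand, for miR-451), had 222.8, 418 and 239 in spleen and 773, 1165 and 2939 in marrow, a difference of 2.30 ± 0.34, with animal 6 far above the others in marrow. The opposite strand of its hairpin, miR-144*, was called lower in marrow (log2 difference -0.80 ± 0.29). It had 58.8, 76.1 and 83.6 in spleen and 63.4, 34.1 and 33.0 in marrow. Since 3 spleen arrays and 1 marrow array detected it, it entered the test through spleen alone. The organs overlapped in animal 4, and the call was lost without the arrays of animal 5 (limma adjusted p = 0.34). With background correction on the median spot signals the difference turned to 0.87. miR-223 was 2.31-fold higher in marrow (1.21 ± 0.25, limma adjusted p = 6.57e-04), but the difference shrank to 0.22 with the percentile over all miRNAs and was -0.84 without scaling. miR-142-3p did not pass the test (0.27, 95% interval -0.31 to 0.86). It turned to -0.73 with quantile normalization and to -0.71 with the percentile over all miRNAs, and was called lower under both. miR-142-5p did not pass either (-0.61, -1.22 to 0.01), but was called lower under the other 3 scalings, at -0.77, -0.75 and -1.59 (six-array percentile, quantile and all miRNAs).

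Most entries of the miR-17 clusters were called higher in bone marrow. These clusters comprise miR-17 to miR-92a on chromosome 15, miR-106b to miR-25 inside the gene Mcm7 on chromosome 12 and miR-20b with miR-363 on chromosome X, and they are known to promote the division and survival of precursor cells. Of 12 tested entries 8 were called higher, 0 lower and 4 were not called, beside 44.6% higher among all tested, and 5 of the 8 were stable to scaling. The median log2 difference was 1.37 over the 12 and 0.34 over all 148. miR-18a had 76.1, 65.6 and 58.8 in spleen and 335, 401 and 539 in marrow, so that each marrow lay more than 4-fold above its own spleen. That is a 6.27-fold difference (log2 2.65 ± 0.26, limma adjusted p = 1.27e-06), and it stayed between 1.67 and 2.65 over the 4 scalings. miR-93, the middle member of the Mcm7 cluster (chr12:22156894-22156916, minus strand), had 176, 165.4 and 153 in spleen and 772, 791 and 1108 in marrow. It was 5.33-fold higher (log2 2.41 ± 0.24, limma adjusted p = 1.63e-06), with no overlap.

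The other members with the miR-17 seed followed in the order miR-17-5p (1.82), miR-20b-5p (1.73), miR-20a (1.72) and miR-106b (1.31), each on the log2 scale with an SE of 0.24 or 0.25. Neighbors in this order differ by less than 2 SE. miR-17-5p had 241, 205 and 185 in spleen and 696, 656 and 875 in marrow. miR-20a had 802, 699 and 689 and 2016, 2347 and 2944. In both, every marrow was above every spleen by more than 2-fold. Without scaling the 5 members with this seed ranged from -0.74 to 0.37, against a median of -1.58 over all 148. miR-19a was higher (1.44 ± 0.26), which shrank to 0.46 with the percentile over all miRNAs. miR-25 was slightly higher (0.68 ± 0.24, limma adjusted p = 0.0204) and turned to -0.30 with that percentile. The miR-25 call was lost without the arrays of animal 4 or those of animal 5. miR-19b and miR-92a, which the same clusters encode, did not pass the test at 0.35 (-0.15 to 0.84) and 0.35 (-0.14 to 0.85), and the 2 entries for miR-363 lay at -0.04 and -0.39. With the percentile over all miRNAs miR-19b turned to -0.64 and was called lower, and miR-92a to -0.63, where it did not pass, whereas quantile normalization called both higher, at 0.47 and 0.48. The entry miR-363_v15.0 was called lower under these 2 scalings, at -1.03 (all miRNAs) and -0.60 (quantile). The other miR-363 entry was called lower too. It was detected on 0 marrow arrays and 3 spleen arrays, so the size of its difference is not well measured under any scaling.

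Members of one cluster thus differed in how far they were apart between the organs. A ratio of 2 miRNAs on the same array does not change with the factor of the array, and comparing it between the organs of an animal gives a value free of the scaling. The log2 ratio of miR-18a to miR-19b was higher in marrow by 1.87, 2.41 and 2.63 in animals 4, 5 and 6. That of miR-17-5p to miR-92a was higher by 1.00, 1.45 and 1.94, and that of miR-93 to miR-25 by 1.29, 1.94 and 1.96. All of these were above 0 in 3 of 3 animals. The mature sequences of miR-19b, miR-92a and miR-17-5p are each encoded at 2 loci (chromosomes 15 and X), whose products the array cannot separate.

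The lymphocyte miRNAs had calls in both directions. Of 10 tested, 6 were higher in marrow, 3 lower and 1 (miR-150*, not detected in marrow) was not called, beside 44.6% higher and 22.3% lower among all tested, with 2 and 3 stable to scaling. The higher ones were the miR-181 family with miR-181a-1* and miR-146b, and the lower ones were miR-150, miR-342-3p and miR-146a. miR-181d had 26.2, 24.2 and 18.6 in spleen and 96.3, 96.0 and 116 in marrow, a 4.49-fold difference (log2 2.17 ± 0.24, limma adjusted p = 4.58e-06). miR-181b had 76.3, 82.0 and 67.5 and 281, 278 and 341, a 3.98-fold difference (1.99 ± 0.24, limma adjusted p = 5.90e-06). These 2 were stable to scaling. miR-181a and miR-181c were higher by 1.21 and 1.15, which shrank to 0.22 and 0.17 with the percentile over all miRNAs and were -0.84 and -0.89 without scaling. For miR-181b to miR-181a, which neighbor each other on chromosome 13 (miR-181a is also encoded on chromosome 3, and the array cannot separate the loci), the log2 ratio was higher in marrow by 0.99, 0.65 and 0.72 in animals 4, 5 and 6.

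miR-150, which restrains the transcription factor Myb and rises as lymphocytes mature, was lower in bone marrow. It had 2879, 2784 and 2699.5 in spleen and 550.04, 462 and 623 in marrow, a 5.15-fold difference (log2 -2.37 ± 0.23, limma adjusted p = 1.47e-06). miR-342-3p, encoded inside the gene Evl (chr6:133329715-133329737, plus strand), had 753, 686 and 711 in spleen and 199.8, 198 and 195 in marrow. Its 3 marrow values were nearly the same and lay far below spleen, and the difference was 3.62-fold (-1.86 ± 0.23, limma adjusted p = 7.39e-06). miR-146a, which dampens innate immune signaling, was lower by a smaller margin, with 858, 836 and 764 in spleen and 493, 377 and 519 in marrow (-0.84 ± 0.24, limma adjusted p = 0.00676); the call was lost without the arrays of animal 5 (limma adjusted p = 0.159). miR-146b has the same seed but was higher (0.70 ± 0.24), a direction that turned to -0.28 with the percentile over all miRNAs. The log2 ratio of miR-146b to miR-146a was higher in marrow by 1.41, 1.59 and 1.62.

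**Figure D3:**
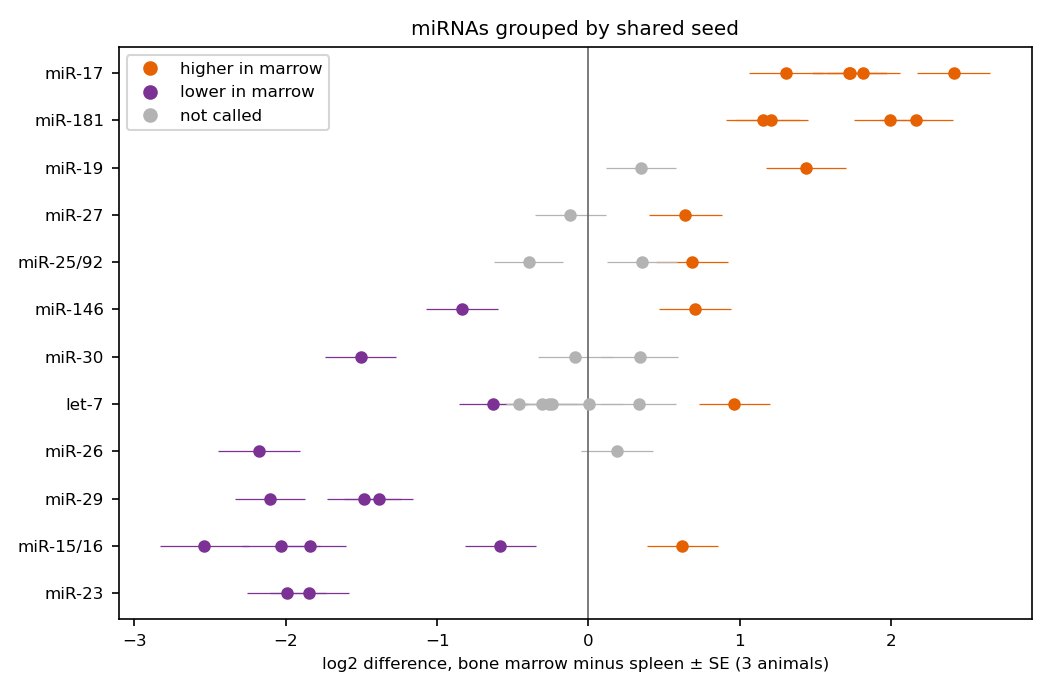
log2 difference, bone marrow minus spleen, with SE (3 animals, paired limma fit), of miRNAs grouped by shared seed; orange is called higher, purple called lower and grey not called, and miRNAs without a RefSeq entry at hand are left out. The miR-17 and miR-181 seeds lie wholly above 0, the miR-29 and miR-23 seeds wholly below, and the miR-15/16, miR-146 and let-7 seeds have calls on both sides in this scaling, though miR-16, miR-146b and let-7i turned below 0 with the percentile over all miRNAs.

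The tested miRNAs with a sequence held 19 seeds shared by at least 2 entries, and 3 of these seeds had calls in both directions, those of miR-15/16, miR-146 and let-7. This holds for the main scaling, since the one higher member of each (miR-16, miR-146b and let-7i) turned below 0 with the percentile over all miRNAs and lost its call without the arrays of animal 5. The base composition of the mature sequences was compared as well. The share of G and C in the mature sequence had a median of 46.6% over the 26 stable higher miRNAs with a sequence, 40.9% over the 25 stable lower ones and 45.5% over all 118 tested ones, each miRNA counted once. Across those 118 its Spearman correlation with the log2 difference was 0.29, a description only, since the miRNAs share arrays and G and C content also bears on hybridisation; its part in the differences was not tested.

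The miR-15 and miR-16 family, known for holding back the cell cycle, had 4 members called lower, all stable to scaling, and 1 called higher, beside 22.3% lower among all tested. miR-15b had 3585, 2912 and 3378 in spleen and 1114, 498 and 325 in marrow, a 5.81-fold difference (log2 -2.54 ± 0.29, limma adjusted p = 4.74e-06). Its marrow values spread over more than 3-fold, with animal 4 the highest. miR-16 had 5281, 5095 and 4666 in spleen and 7707, 6729 and 8811 in marrow (0.62 ± 0.23, limma adjusted p = 0.0307), and its direction turned to -0.36 with the percentile over all miRNAs. Both are encoded inside the gene Smc4 within a span of 168 bases (chr2:155555197-155555364, plus strand). The log2 ratio of miR-16 to miR-15b was higher in marrow by 2.23, 2.95 and 4.29 in animals 4, 5 and 6 (mean 3.16 ± 1.05, SD).

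Of the other members, miR-195 had 776, 668 and 616 in spleen and 282, 149.9 and 164 in marrow (-1.84 ± 0.24, limma adjusted p = 1.20e-05). miR-497, its neighbor in a span of 358 bases on chromosome 10, was lower by less, at -0.58 ± 0.23 (limma adjusted p = 0.0408). That call was lost without the arrays of animal 4 or those of animal 5. miR-322 had 148, 109.97 and 115 in spleen and 56.5, 22.4 and 21.5 in marrow, where 1 of 3 arrays (animal 4) detected it (-2.03 ± 0.26). No p-value is given, since it entered the test through spleen alone. The other 2 marrow values were not well above background, so the size of the difference is not well measured. With background correction on the median spot signals it turned to 0.30.

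The miR-29 and miR-30 families are known in fibrous tissue and in many differentiated cells. Of 8 tested members 5 were lower, all stable to scaling, 1 was higher and 2 (miR-30a and miR-30e, called lower with the percentile over all miRNAs at -0.64 and -1.07) were not called, beside 22.3% lower and 44.6% higher among all tested, with a median of -1.43. miR-29b had 2628, 2410.2 and 2207 in spleen and 573, 492 and 622 in marrow, a 4.3-fold difference (log2 -2.11 ± 0.23, limma adjusted p = 4.16e-06). miR-29a had 3088, 3044 and 3008 and 1166, 1099.5 and 1237, and miR-29c 762, 682 and 524 and 270.3, 184 and 249.5. In all 3 every marrow value lay below every spleen value, and miR-29c varied the most within an organ. miR-30b-5p and miR-30c were lower, with log2 differences of -1.86 and -1.51, whereas miR-30d was higher at 1.36 in the main scaling, 0.38 with the percentile over all miRNAs and -0.68 without scaling. miR-30b-5p had 595, 474 and 393 in spleen and 213, 100.3 and 108 in marrow. miR-30d had 307, 270.1 and 242 and 505, 714 and 946. The log2 ratio of miR-30d to miR-30b-5p was higher in marrow by 2.20, 3.64 and 3.82, the highest mean of the 16 ratios computed (3.22 ± 0.89, SD, n = 3).

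The miR-23, miR-27 and miR-24 clusters parted in the same way. Of 5 tested entries 1 was higher, 2 lower and 2 were not called, beside 44.6% higher and 22.3% lower among all tested. Both miR-23 members were lower and stable to scaling, while miR-24 and miR-27b did not pass the test, at -0.12 (-0.63 to 0.38) and -0.12 (-0.62 to 0.38). With the percentile over all miRNAs miR-24 and miR-27b were called lower too, at -1.11 and -1.10, as they were with the authors' table and without scaling. miR-23a had 3222, 2600.1 and 2160.3 in spleen and 1272, 487 and 463 in marrow, a 3.98-fold difference (log2 -1.99 ± 0.26, limma adjusted p = 1.20e-05). miR-27a, from the same locus on chromosome 19, had 1362, 1126 and 1024 and 1672, 1676 and 2118, which is 0.64 ± 0.24 in the main scaling and -0.34 with the percentile over all miRNAs. The log2 ratio of miR-27a to miR-23a was higher in marrow by 1.64, 2.99 and 3.27. That of miR-27b to miR-23b, the second cluster inside the gene Aopep on chromosome 17, was higher by 1.18, 1.66 and 2.33. Again 3 of 3 animals had the same direction, with the lowest value in animal 4.

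**Figure D4:**
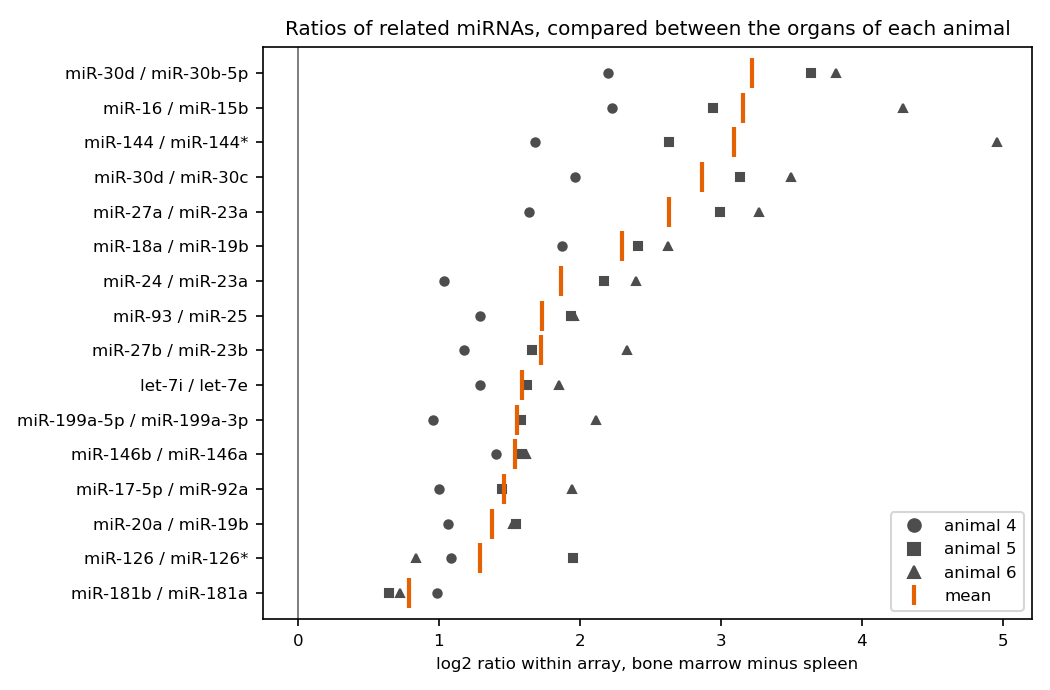
log2 ratio of 2 related miRNAs on one array, bone marrow minus spleen, for each animal (symbols) and as the mean (orange bar), for 16 ratios. All values lie above 0, which the choice of which miRNA to put first contributes to; the means run from 0.79 for miR-181b to miR-181a up to 3.22 for miR-30d to miR-30b-5p.

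These 16 ratios were chosen and oriented with their values known, so they carry no test, and 3 pairs could not give an exact two-sided permutation p below 0.25. Animal 4 gave the lowest value in 14 of the 16 ratios. Its marrow array was the brightest of the 3 marrow arrays, and whether signal strength plays a part in these ratios was not tested.

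miR-494 had the widest difference of all. The array carries 2 entries for it, and RefSeq places the miRNA at chr6:134550163-134550185, plus strand, within the long noncoding gene LOC102555254, in the imprinted Dlk1-Dio3 region, a large miRNA cluster active in embryonic and neural tissue. The entry labelled miR-494_v15.0 had 159, 117 and 101 in spleen and 10442, 12658 and 7295 in marrow, a 79.9-fold difference (log2 6.32 ± 0.24, limma adjusted p = 4.37e-11). The other entry had 92.8, 58.8 and 47.6 and 2529.6, 2600.2 and 1869.5, a 36.2-fold difference (5.18 ± 0.24). Without any scaling the first entry still read 4562, 3663 and 1736 in marrow against 241, 144.4 and 115 in spleen. Over 55 organs, miR-494_v15.0 was highest in pancreas (326164), then parotid gland (14849) and then bone marrow (10132), with spleen at place 31. Of the 34 entries of the Dlk1-Dio3 list on the array, 6 were detected on any of the 6 arrays and 3 were tested, namely both miR-494 entries and miR-409-3p. All 3 were called higher, beside 44.6% among all tested, with 2 of the 3 for the same miRNA, but miR-409-3p was dim (16.5, 23.5 and 18.1 in spleen and 50.6, 57.0 and 82.7 in marrow) and its unscaled signals overlapped (24.9, 28.9 and 20.7 and 22.1, 16.5 and 19.7).

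miR-466b also stood high in the pancreas. It had 12.0, 17.5 and 9.05 in spleen, where 2 of 3 arrays detected it and the values lay near or below the floor, which limits the size of the difference, and 119, 146 and 255 in marrow (12.5-fold, log2 3.64 ± 0.29). No p-value is given, since miR-466b entered the test through marrow alone. Its first 3 organs of 55 were pancreas (3838), cecum (591) and bone marrow (173). miR-1224, encoded inside the gene Vwa5b2, had 349, 383 and 356 in spleen and 1857, 2183 and 1993 in marrow, a 5.54-fold difference (2.47 ± 0.23) with little spread in either organ. The remaining members of the higher end, miR-331*, miR-188, miR-327, miR-210 and miR-130b, were higher by 2.08 to 2.26 and by 0.04 to 0.23 without scaling. The pancreas was also the highest organ for miR-1224 (1052740), miR-327 (16097) and miR-188 (7772). By contrast miR-331* was highest in marrow, miR-130b in thymus and miR-210 in epididymis. For miR-181d pancreas read 198 and thymus 188. However, let-7b*, which no organ detected on all its arrays, read 192 in pancreas, so the place of pancreas for miR-181d is not well measured. The orders of organs given here rest on the main scaling alone. miR-210, the miRNA known for the response to low oxygen, had 13.7, 12.6 and 11.1 in spleen, where 2 of 3 arrays detected it and all values lay near the floor, and 43.1, 55.3 and 62.2 in marrow (4.26-fold, 2.09 ± 0.24). It too entered the test through marrow alone, so no p-value is given.

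miR-196b and miR-204 were each measured in only one of the organs. miR-196b, which lies on chromosome 4 (chr4:82661149-82661170, minus strand) and is known from the HOX gene clusters and from immature myeloid cells, was detected on 3 marrow arrays and 0 spleen arrays. Its marrow signals were 100.3, 77.1 and 109.8, and spleen read 2.37, 2.68 and 2.89, not well above background, so that marrow was at least 8.41-fold higher. No p-value is given, since it was tested through marrow alone and all its spleen values were set to the floor. The bound sets the mean of the detecting organ against, for each array of the other, its lowest detected signal or the floor of 10.8, whichever is higher. Of the other HOX cluster miRNAs tested, miR-10a-5p was lower in marrow (-0.71 ± 0.23, limma adjusted p = 0.015) and miR-10b did not pass (0.33, -0.18 to 0.83); it was called lower with the percentile over all miRNAs (-0.66) and higher with background correction on the median spot signals (0.88). The miR-10a-5p call was lost without the arrays of animal 4 or those of animal 5.

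miR-204, encoded inside the gene Trpm3 (chr1:229743493-229743514, plus strand) and best known from the eye, had 301, 233 and 245 in spleen and was detected on 0 of 3 marrow arrays (9.57, 4.18 and 3.93). Spleen was at least 8.58-fold higher. No p-value is given, since it was tested through spleen alone and all its marrow values were set to the floor. Of the 55 organs 43 detected miR-204 on all their arrays, and the eyeball was first (13959); marrow, where it was not well above background, has no place in that order. miR-26b, inside the gene Ctdsp1, had 2090.2, 1944 and 1575 in spleen and 772, 289.6 and 309 in marrow (4.52-fold lower, -2.18 ± 0.27, limma adjusted p = 8.32e-06). All 55 organs detected miR-26b on all their arrays, and marrow was last among them while the spleen was at place 7. Its family member miR-26a, with the same seed, did not pass the test (0.19, -0.32 to 0.70), and was called lower with the percentile over all miRNAs (-0.79). miR-338, inside the gene Aatk, and miR-151 were lower, with log2 differences of -1.74 and -1.59; miR-338 was detected on 2 marrow arrays and turned to 0.40 with background correction on the median spot signals.

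Stromal and vessel miRNAs gave a mixed picture. Both smooth muscle miRNAs tested were called lower in marrow, beside 22.3% among all tested. miR-143 had 2338, 2153 and 1683 in spleen and 1134, 829 and 573 in marrow (2.51-fold, -1.32 ± 0.23, limma adjusted p = 1.73e-04), and miR-145 was lower (-0.73 ± 0.25), with 1 marrow array detecting it. The miR-145 difference turned to 1.05 with background correction on the median spot signals. Of the endothelial pair, miR-126 did not pass (0.38, -0.16 to 0.93) and turned to -0.60, called lower, with the percentile over all miRNAs. Its opposite strand miR-126* was called lower (-0.91 ± 0.31) and turned to 0.72 with background correction on the median spot signals. Since 2 marrow arrays detected miR-126*, it entered the test through spleen alone. Both the miR-145 and the miR-126* call were lost without the arrays of animal 5 (limma adjusted p = 0.29 and 0.386) and in the fit without the animal as a block. Of 7 mesenchymal and cartilage miRNAs tested, 5 were higher and 2 lower in the main scaling, beside 44.6% and 22.3% among all tested, but none of the 5 was stable to scaling. miR-140* and miR-140, known from cartilage, were higher by 0.91 and 0.63, which became -0.07 and -0.35 with the percentile over all miRNAs. miR-214 went from 0.84 to -0.15 likewise. Of the 2 strands of the miR-199a hairpin, miR-199a-5p was at 0.70 (and -0.29 with the percentile over all miRNAs) and miR-199a-3p at -0.86. The miR-199a-3p call was not stable to scaling and was lost without the arrays of animal 5 (limma adjusted p = 0.288) and in the fit without the animal as a block. miR-455*, 1 of the 2 counted as lower, was detected on 0 marrow arrays and its spleen signals (32.1, 30.6 and 24.3) lay at the lowest signals the marrow arrays detected (27.0 to 32.2), so that no fold can be given; with background correction on the median spot signals its difference turned to 1.20.

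The let-7 family is known for differentiated cells of most tissues. Of 8 tested members 1 was higher, 1 lower and 6 were not called, beside 66.9% called among all tested, with a median of -0.25 against 0.34 over all tested in the main scaling. With the percentile over all miRNAs the 8 members lay between -1.61 and -0.02. let-7e was lower (-0.63 ± 0.23, limma adjusted p = 0.0253), a call that was lost without the arrays of animal 4 or those of animal 5. let-7i was higher (0.96 ± 0.24, limma adjusted p = 0.00252), which became -0.02 with the percentile over all miRNAs. Between let-7i and let-7e the log2 ratio was higher in marrow by 1.29, 1.63 and 1.86 in animals 4, 5 and 6. In the miR-99, miR-100 and miR-125 clusters let-7e was the single call, a lower one, among 7 tested, beside 22.3% lower among all tested. The 75th percentile that set the scale fell on or next to let-7b on each of these arrays, so the closeness of let-7b to 0 follows from the scaling, and the level of the family as a whole moves with it.

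**Figure D5:**
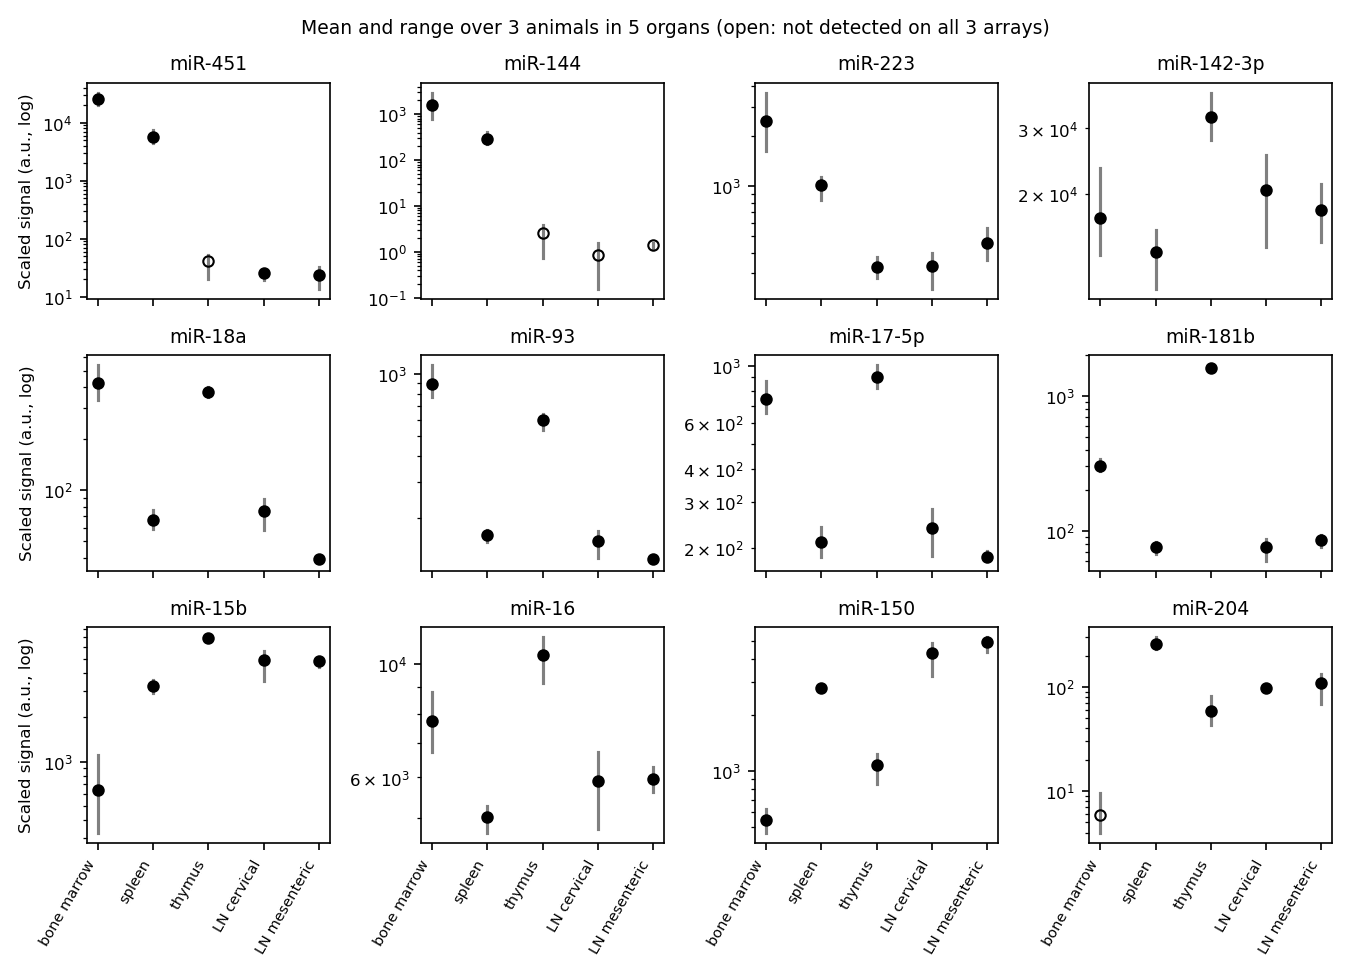
Scaled signal (arbitrary units, log axis; mean as a point and the range over 3 animals as a line) of 12 miRNAs in bone marrow, spleen, thymus and the cervical and mesenteric lymph nodes (LN); open points mark organs with fewer than 3 arrays that detected the miRNA. miR-18a, miR-93 and miR-17-5p are high in both marrow and thymus and low in the other 3 organs, whereas miR-150 is lowest in marrow.

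Levels in thymus and lymph nodes of the same animals place these differences; no test was made of them. miR-18a was 425 ± 104 in marrow (mean ± SD, n = 3) and 376 ± 26.4 in thymus, whose ranges overlap, against 66.8 ± 8.7 in spleen and 74.9 ± 15.5 and 39.6 ± 1.42 in the cervical and mesenteric lymph nodes. miR-93 was 890.02 ± 189 in marrow, 599 ± 55.4 in thymus and between 126 and 164.8 in the other 3. Marrow was the first of the 55 organs for both, with thymus second. For miR-17-5p and miR-20a the thymus was first and the marrow second.

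Of the 5 organs, miR-181b was highest in thymus (1609 ± 81.8), then in marrow (300.2 ± 35.4), and the range of spleen (75.3 ± 7.27) overlapped those of the lymph nodes. miR-150 ran the other way. It was 4899 ± 482 and 4299 ± 913 in the mesenteric and cervical lymph nodes, 2787 ± 89.6 in spleen, 1080.00 ± 203.6 in thymus and 545 ± 80.5 in marrow. miR-15b was 6955 ± 99.0 in thymus and 646 ± 415 in marrow, while miR-16 was 10417 ± 1117 in thymus and 7749 ± 1042 in marrow, so that marrow was the lowest of the 5 organs for miR-15b and the second for miR-16. miR-196b, absent from the detected miRNAs of spleen and both lymph nodes, was detected on 3 of 3 thymus arrays (46.3 ± 7.61).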

How the data were processed

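Total RNA of each organ was labelled with Cy3 and hybridised to 1-color Agilent rat miRNA arrays. The deposited scanner files, written by Agilent Feature Extraction 10.7.3 per the submitters' processing notes, hold a background-subtracted intensity for each of 14340 miRNA spots, with flags for detection and outliers. The authors also deposited a table of normalized signal, which the methods describe as scaled per array on the 75th percentile with Expressionist; on these 6 arrays it is linear and not centred by miRNA, since it equals the summed signal of a miRNA times one number per array (column medians 0.09 to 0.41), and it served as an alternative.

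The 715 control spots and the outlier spots were left out, spots of a probe sequence were averaged, and the probe sequences of a miRNA were averaged. Detection of a miRNA on an array required the scanner flag for a signal well above background on more than 50% of its spots. Each array was multiplied so that the 75th percentile of 37 miRNAs, those that all 180 arrays detected, equalled its mean over arrays (2118). Values were floored at 10.8 and taken to log2. Differences were fitted on the 148 miRNAs with limma 3.58.1 in R 4.3.3 (lmFit and eBayes), with the animal as a block, and p-values were adjusted by Benjamini-Hochberg over the 148 at 0.05. The 2 organs with the same number come from the same rat per the labels; deviations of such pairs from the organ means correlated at 0.30, 0.54 and 0.07. The 3 rats are separate animals, and their small number limits the precision. An exact permutation test of 3 pairs cannot go below 0.25, nor one of 3 against 3 below 0.1, so none is given. The fit was tested on simulated data, with 40 differences planted among 148 miRNAs in each of 50 draws. It recovered 0.1% of them at a log2 difference of 0.5, 71.2% at 1 and 96.9% at 2. The mean count of false calls was 0.02, 1 and 1.66. Small differences were thus rarely found in that setting, which had fewer true differences than the 99 called here. Tables and plots were made with pandas 2.3.3, numpy 2.4.6 and matplotlib 3.10.9. No columns were left unmapped.

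Named miRNAs are the 15 highest and 15 lowest calls with 1 direction in all animals and no overlap, the markers, the members of 19 lists and other arms of these. Ratios and the rule of 4 scalings were added after the values were seen. The members and lists were chosen with earlier results of these data known. Alternatives covered the block, the arrays in the fit, scaling, floor, background, filters, summary of spots, scan day and single animals.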

Additional observations from a re-analysis of the deposited data

How the results depend on the processing

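The fit with the animal as a replicate block called 99 miRNAs and the fit with no replicate block 95, of which 92 were among the 99 with the same direction; of the named miRNAs, miR-199a-3p, miR-145 and miR-126* lost their calls. Leaving out the arrays of one animal gave 61 to 102 calls, 42 to 61 higher and 19 to 41 lower, and 43 to 60 of the named miRNAs called. The lowest counts came without animal 5, where of the named miRNAs miR-25, miR-181a-1*, let-7i, let-7e, miR-30d, miR-27a, miR-16, miR-214, miR-199a-5p, miR-199a-3p, miR-497, miR-145, miR-126*, miR-146a, miR-146b, miR-10a-5p, miR-144*, miR-140* and miR-140 were no longer called. Without animal 4 this held for miR-25, let-7e, miR-16, miR-214, miR-199a-5p, miR-497 and miR-10a-5p, and without animal 6 for miR-27a, miR-16 and miR-140. The scaling set the balance of directions, with 30 higher and 80 lower for the percentile over all miRNAs, 56 lower for quantile normalization, 5 higher and 119 lower for no scaling, and 42 higher and 60 lower for the authors' normalized table. Turns of direction are listed for miRNAs the text names that passed the test in the main or the other setting. Without scaling the direction turned for miR-17-5p (-0.23), miR-20a (-0.32), miR-20b-5p (-0.32), miR-106b (-0.74), miR-25 (-1.36), miR-19a (-0.61), miR-19b (-1.70), miR-92a (-1.69), miR-181a (-0.84), miR-181b (-0.0520), miR-181c (-0.89), miR-181a-1* (-0.77), miR-223 (-0.84), miR-142-3p (-1.77), let-7i (-1.08), miR-30d (-0.68), miR-27a (-1.41), miR-16 (-1.42), miR-214 (-1.21), miR-199a-5p (-1.35), miR-126 (-1.67), miR-146b (-1.34), miR-10b (-1.72), miR-140* (-1.13), miR-140 (-1.42), miR-409-3p (-0.35), let-7b (-2.04), miR-26a (-1.86) and miR-30a (-1.71). With the percentile over all miRNAs it turned for miR-25 (-0.30), miR-19b (-0.64), miR-142-3p (-0.71), let-7i (-0.0183), miR-27a (-0.34), miR-16 (-0.36), miR-214 (-0.15), miR-199a-5p (-0.29), miR-126 (-0.60), miR-146b (-0.28), miR-10b (-0.66), miR-140* (-0.0683), miR-140 (-0.35), let-7b (-0.98), miR-26a (-0.79) and miR-30a (-0.64), with quantile normalization for miR-142-3p (-0.73) and with the authors' table for let-7b (-0.54). A floor 4 times as high left 54 calls, 32 of them higher, and 40 of the named miRNAs called. The next 4 settings were chosen after the data were seen. Background correction by normexp on the median spot signals gave 105 higher and 20 lower and turned miR-322 (0.30), miR-338 (0.40), miR-145 (1.05), miR-126* (0.72), miR-455* (1.20), miR-144* (0.87), miR-150* (1.30), miR-363 (1.18) and miR-363_v15.0 (0.87); the planned correction on mean spot signals was not run because the files used hold no such column. Restricting to the 81 miRNAs with a mean unscaled signal of at least 100 left 53 calls, 31 of them higher. The 3 arrays of scan day 3 gave 50 calls, 35 higher and 15 lower, with 39 of the named miRNAs called, on the assumption that the lone spleen varied like the marrows. With scan day as a block in place of the animal, 84 were called, all in the same direction as before. Calls of lower in marrow were gained by miR-142-5p and miR-363 in 8 settings each, by miR-150* and miR-363_v15.0 in 4 each and by miR-24, miR-27b and miR-30e in 3 each, and calls of higher by miR-19b and miR-92a with quantile normalization and by miR-10b and miR-30a with normexp. The cause of these changes was not tested. The 15 highest and 15 lowest miRNAs kept their direction under every setting that tested them except miR-322 and miR-338, given above. Signals near background limit the dim miRNAs, since the lowest detected scaled signal was 27.0 to 32.2 on the marrow arrays and 4.63 to 12.2 on the spleen arrays.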
